A study of Homo sapiens with 5 samples.

Results

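The genes described here are the CDK inhibitors CDKN2A, CDKN2B, CDKN2C, CDKN1A and CDKN1B, the D cyclins CCND1, CCND2 and CCND3, and the kinases CDK4 and CDK6. They were taken by gene name from a table of 57905 genes, and all 10 were found, each in 1 row. Levels were measured by RNA sequencing in 5 established human cell lines with 1 library each. MKL-1, MKL-2, WaGa and MCC13 are labelled Merkel cell carcinoma (MCC, a neuroendocrine skin cancer, n = 4) and REH is labelled pre-B-cell acute lymphoblastic leukemia (n = 1). All 5 are given as wild type and grown in the same serum-containing RPMI medium. As background, MKL-1, MKL-2 and WaGa are known to carry Merkel cell polyomavirus, and MCC13 is known as a virus-negative line; the first 3 are called the virus-carrying lines here. In bulk RNA, fewer cells that express a gene and less RNA per cell cannot be told apart. The unit is TPM, the authors' normalized transcript abundance per transcript length, which can be compared between genes. The read depth behind a TPM value is unknown. No line had a replicate, so n counts lines, each error is a spread between lines, and a line cannot be told apart from its library.

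Cells commit to division late in the first gap phase, when D cyclins bind CDK4 or CDK6 and the paired enzyme phosphorylates the retinoblastoma protein RB1, which releases E2F transcription factors. INK4 inhibitors (p16 from CDKN2A, p15 from CDKN2B, p18 from CDKN2C) bind CDK4 and CDK6 and keep D cyclins off. CIP/KIP inhibitors (p21 from CDKN1A, p27 from CDKN1B) bind cyclin and kinase together and chiefly restrain CDK2. The virus of Merkel cell carcinoma makes a T antigen that binds RB1, and the loss of CDKN2A is frequent in acute lymphoblastic leukaemia.

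The lines were checked against their labels first. All 11 Merkel cell markers reached 1 TPM in MKL-1 and MKL-2 and 10 in WaGa, but only 3 did in MCC13, where 5 of them, among them ATOH1 and INSM1, were listed at 0. Of 10 mesenchymal markers 9 reached 1 TPM in MCC13, COL3A1 being the exception, and 4 to 5 did in each other line. Their summed level was 11685 TPM for MCC13, 1374 TPM for REH and 18.8 to 256 TPM for the virus-carrying lines. Of 11 pre-B markers 10 reached 1 TPM in REH, and VPREB1 was listed at 0. The virus-carrying lines reached 1 TPM on 3 to 5 of these markers and MCC13 on 1. Among them PAX5 ranged from 38.4 to 91.9 TPM and EBF1 from 52.7 to 64.6 TPM in the virus-carrying lines, below REH at 186 and 119.7 TPM. Whether these marker differences have a part in the results was not tested. In REH, 21 genes that stood at 50 TPM or more in each of the other lines were listed at exactly 0. Among them were the Merkel cell markers KRT8 and KRT18. A listed 0 can be a failed estimate or a gene that is not expressed, and these were not told apart. There was no such gene in MKL-1. REH was compared with MCC lines only and MKL-1 with MCC lines and REH, so the counts are not alike.

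Of the 10 genes, 5 reached 1 TPM in every line, namely CDKN2C, CDKN1A, CDKN1B, CCND3 and CDK4. MCC13 had all 10 above that level, MKL-2 had 8, WaGa and REH had 7 and MKL-1 had 6. The plot of levels by line shows that CDKN1A varied least of the 10 genes, by 3.72 times between lines, while CDKN2A, CCND1 and CDK6 ranged from near 0 to among the abundant genes.

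**Figure D1:**
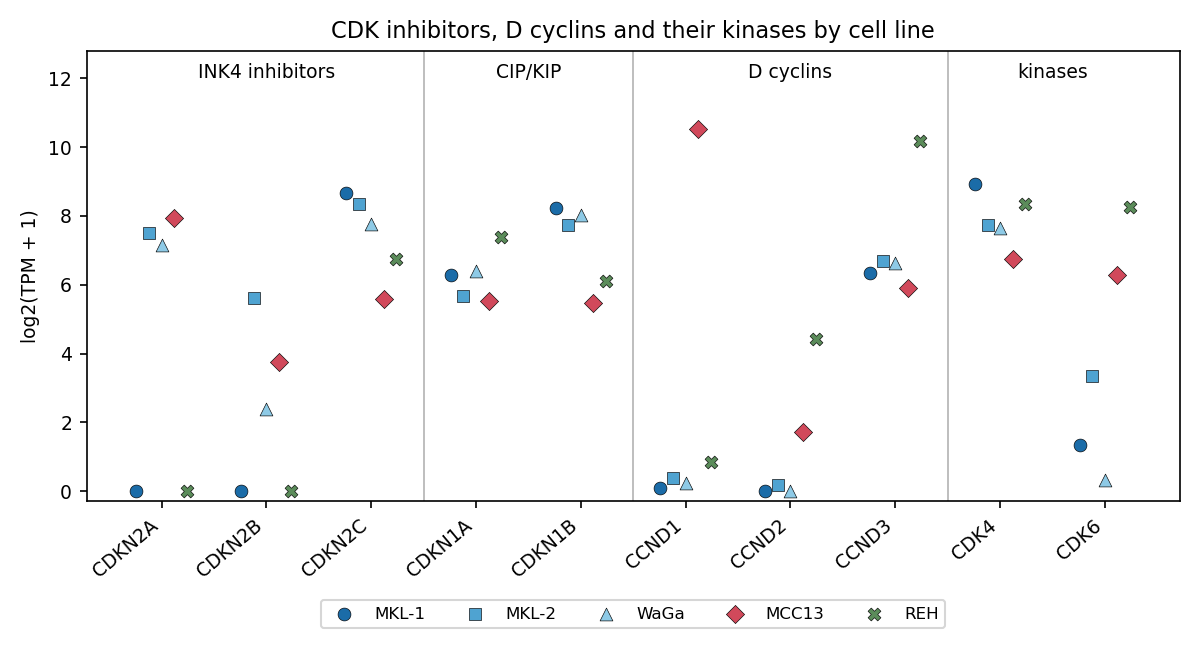
Level of each gene in each line on the scale log2(TPM + 1), 1 point per library, grouped by role. CCND1 is high in MCC13 only (1484 TPM against at most 0.800 TPM), CCND3 is highest in REH (1168 TPM), and CDKN2A and CDKN2B are listed at 0 in MKL-1 and REH.

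Promoter sequences are shown for 3 genes, because each row of levels covers every start of its gene: CDKN2A and CDKN2B, which were listed at 0 in the same pair of lines, and CCND3, the gene that differed between the MCC lines and REH. Each run holds 250 bases before and 50 bases after a transcription start, 5′ to 3′, from RefSeq on GRCh38.p14. The builds listed for the deposited levels are hg19 and GRCh37, so the sequences serve only to show the starts. Of the 10 genes 8 had an entry, with 14 starts in all, and CCND1 and CCND2 had none. CDKN2A has separate starts for ARF, a second protein in another reading frame, and for p16. CCND3 has 3 starts. Capitals mark the GC box GGGCGG on either strand, the site bound by SP1 factors.
CDKN2A, ARF start (chr9:21995275-21995574, minus strand): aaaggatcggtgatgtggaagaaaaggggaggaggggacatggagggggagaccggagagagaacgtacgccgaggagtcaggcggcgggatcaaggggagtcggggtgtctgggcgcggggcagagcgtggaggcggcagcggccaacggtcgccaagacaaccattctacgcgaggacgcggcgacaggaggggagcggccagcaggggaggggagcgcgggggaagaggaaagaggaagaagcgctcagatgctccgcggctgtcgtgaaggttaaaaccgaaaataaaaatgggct
CDKN2A, p16 start (chr9:21974808-21975107, minus strand): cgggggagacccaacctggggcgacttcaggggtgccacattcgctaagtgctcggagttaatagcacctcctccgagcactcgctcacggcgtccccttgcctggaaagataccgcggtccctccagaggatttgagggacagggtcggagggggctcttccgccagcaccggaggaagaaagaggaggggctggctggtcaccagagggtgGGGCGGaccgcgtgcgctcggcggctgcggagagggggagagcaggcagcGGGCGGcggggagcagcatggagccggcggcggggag
CDKN2B (chr9:22009256-22009555, minus strand): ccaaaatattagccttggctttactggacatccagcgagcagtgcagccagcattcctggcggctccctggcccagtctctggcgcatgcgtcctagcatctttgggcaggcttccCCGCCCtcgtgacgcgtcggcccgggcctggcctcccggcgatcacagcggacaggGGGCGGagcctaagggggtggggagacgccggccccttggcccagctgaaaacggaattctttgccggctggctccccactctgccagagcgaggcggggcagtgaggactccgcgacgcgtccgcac
CCND3, first start (chr6:42048639-42048938, minus strand): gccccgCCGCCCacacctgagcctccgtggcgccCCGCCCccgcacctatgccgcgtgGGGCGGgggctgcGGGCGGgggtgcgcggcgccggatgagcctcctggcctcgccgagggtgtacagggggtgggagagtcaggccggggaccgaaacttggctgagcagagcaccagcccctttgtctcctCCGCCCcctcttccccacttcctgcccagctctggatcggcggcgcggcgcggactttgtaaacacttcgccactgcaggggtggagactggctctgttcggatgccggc
CCND3, second start (chr6:41941759-41942058, minus strand): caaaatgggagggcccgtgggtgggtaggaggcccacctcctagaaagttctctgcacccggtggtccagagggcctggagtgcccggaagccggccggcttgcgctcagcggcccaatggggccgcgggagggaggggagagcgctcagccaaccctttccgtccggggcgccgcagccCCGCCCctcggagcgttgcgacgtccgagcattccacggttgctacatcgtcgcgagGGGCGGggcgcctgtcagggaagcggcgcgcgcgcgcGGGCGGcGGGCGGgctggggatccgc
CCND3, last start (chr6:41939156-41939455, minus strand): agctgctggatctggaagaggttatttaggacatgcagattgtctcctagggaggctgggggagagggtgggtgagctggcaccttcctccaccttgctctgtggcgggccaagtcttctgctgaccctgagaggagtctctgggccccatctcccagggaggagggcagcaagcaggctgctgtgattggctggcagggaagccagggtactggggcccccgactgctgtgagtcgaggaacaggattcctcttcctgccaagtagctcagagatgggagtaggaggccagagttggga

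The ARF start held no GC box, the p16 start held 2 and the CDKN2B window held 2. The first and second CCND3 windows held 5 and 4, and the last held none. GGGCGG was found in 45.0% of 35116 promoter windows of the same length. CpG counts were 28 and 26 for the ARF and p16 starts and 25 for CDKN2B, against a median of 14 over all windows. Those of CCND3 were 29, 37 and 3. No window of the 14 held TTTGGCGC or TTTCCCGC, forms of the E2F motif (2.27% of all windows), or the AP-1 motif TGACTCA (4.95%), on either strand. Such a match or its absence describes the letters only. One gene-level value sums all starts, so ARF and p16 cannot be told apart in the levels that follow.

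Among the INK4 inhibitors, CDKN2A and CDKN2B were either present or listed at 0, and CDKN2C was present throughout. CDKN2A (ENSG00000147889) was listed at 0 in MKL-1, was found in MKL-2 at 179 TPM, in WaGa at 143 TPM and in MCC13 at 246 TPM, and was listed at 0 in REH. Where it was present it ranked above 92.1% of the genes at 1 TPM or more in WaGa and above 95.8% of them in MCC13. CDKN2B (ENSG00000147883), its neighbour, was listed at 0 in MKL-1 and REH as well and was found in MKL-2 at 48.1 TPM, in WaGa at 4.19 TPM and in MCC13 at 12.4 TPM. The range of the MCC lines therefore included the REH value for both genes. Differences are given on the log2(TPM + 1) scale, and a gene passed where limma's p, adjusted over all tested genes, was under 0.05. Neither passed the test between the MCC lines and REH (limma, adjusted p = 0.494 for CDKN2A and 0.570 for CDKN2B) or between MCC13 and the other 3 MCC lines (limma, adjusted p = 0.648 and 0.806). With MKL-1 at 0 and MKL-2 and WaGa high, the 95% interval of the CDKN2A difference in MCC13 ran from -8.42 to 14.54 on the log2 scale and was too wide to show that the lines were alike. With MKL-1 left out, the CDKN2A difference moved to 0.62 ± 0.28 for MCC13 (SE, limma, adjusted p = 0.354) and to 7.54 ± 0.46 for the MCC lines against REH (SE, limma, adjusted p = 0.0802).

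CDKN2C (ENSG00000123080) was found in MKL-1 at 409 TPM, in MKL-2 at 327 TPM, in WaGa at 217 TPM, in MCC13 at 46.6 TPM and in REH at 106 TPM. The virus-carrying lines lay above both other lines, and the lowest of them was 4.65 times the MCC13 level. The difference of MCC13 from the other 3 was -2.69 ± 0.45 (SE, limma, adjusted p = 0.0648), short of the threshold of 0.05. It passed among genes averaging 5 TPM or more (limma, adjusted p = 0.0434), where fewer genes were tested. In MKL-1 and REH, CDKN2C was 100% of the summed INK4 level. Its share was 59.0% in MKL-2, 59.6% in WaGa and 15.3% in MCC13, where CDKN2A made up 80.6%.

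The genes on either side of CDKN2A and CDKN2B were then read in their GENCODE 29 order. This step was added after the values of both genes had been seen. It took protein-coding genes of chromosome 9 at 5 TPM or more in at least 1 line, 544 in all. REH showed an unbroken run of 11 such genes under 1 TPM, from SLC24A2 to TUSC1, with CDKN2A and CDKN2B inside it. The genes just outside, ACER2 and CAAP1, stood at 6.42 and 29.1 TPM in REH. Inside, KLHL9, a ubiquitin ligase adaptor, was listed at 0 in REH and stood at 27.5 to 34.0 TPM in the other lines, a difference of 4.93 ± 0.41 (SE, limma, adjusted p = 0.00853). MTAP, a methionine salvage enzyme, was listed at 0 in REH too, as were ELAVL2, DMRTA1 and MLLT3, while FOCAD stood at 0.00183 TPM. Of 4 tested genes on the list of 9p21 neighbours only KLHL9 passed against REH, where 1.09% of all tested genes were called higher. MTAP (4.22 ± 2.11), DMRTA1 (2.95 ± 1.42) and the antisense RNA CDKN2B-AS1 (2.95 ± 1.28) did not pass (SE, limma). In REH 17.5% of the 544 genes were under 1 TPM, against 5.33% to 9.01% in the MCC lines. The REH run was the longest on the chromosome. The other 4 lines had no run longer than 4 anywhere on it. Genes low in REH could enter through any of the 4 MCC lines, so run lengths in REH and in an MCC line are not directly comparable. SLC24A2, at 1 end of the run, was also under 1 TPM in MKL-2 (0.234 TPM) and MCC13 (listed at 0).

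In MKL-1 the run was 2 genes long and consisted of CDKN2A and CDKN2B alone. Between CDKN2A and MTAP it ended at a clone-named gene model, which also counts in the REH run. On one side DMRTA1 and ELAVL2 stood at 18.0 and 103 TPM in MKL-1, and on the other KLHL9 stood at 34.0 TPM. CDKN2B-AS1, the antisense RNA of the locus, was found in MKL-1 at 6.93 TPM, in MKL-2 at 15.3 TPM, in WaGa at 12.2 TPM, in MCC13 at 1.20 TPM and in REH at 0.0108 TPM. CDKN2B-AS1 shares exon bases with CDKN2A on the opposite strand, so reads of that pair may not be separable. MTAP was low in MKL-1, at 0.780 TPM, and stood at 32.8 to 56.8 TPM in the other MCC lines. The clone-named gene model shares exon bases with MTAP on the same strand. It stood at 26.7 TPM in MKL-1 and at most 0.481 TPM elsewhere. It also overlaps CDKN2A and CDKN2B on the opposite strand, without shared exon bases. The sum of MTAP and this model was 27.4 TPM for MKL-1, 33.8 for MKL-2, 33.3 for WaGa, 57.0 for MCC13 and 0 for REH. The division between MTAP and this model is therefore uncertain. The cause of these patterns was not tested.

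**Figure D2:**
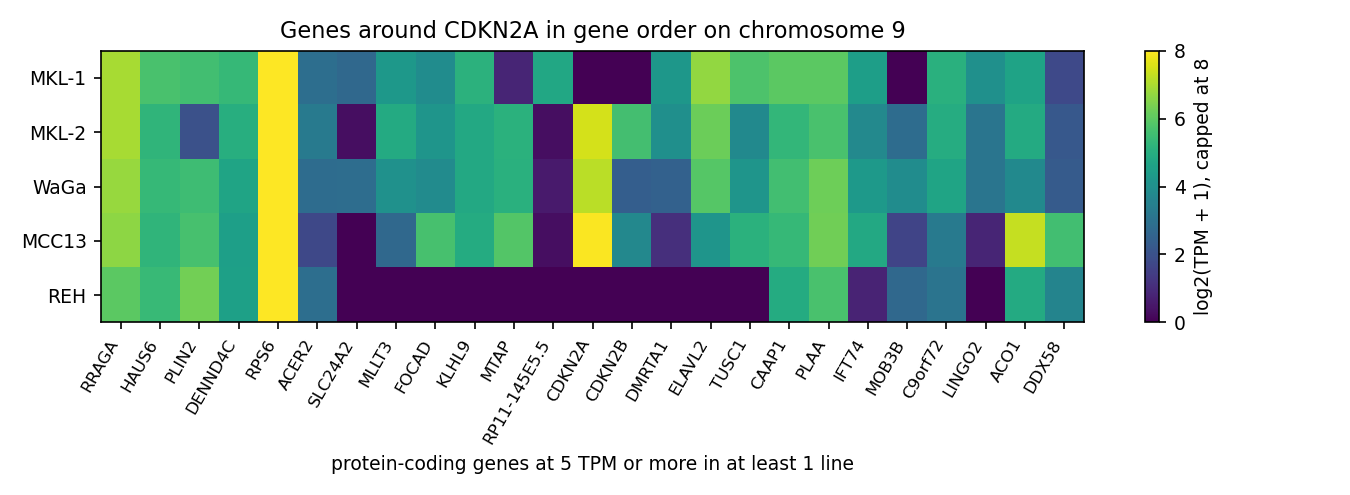
Levels of 25 protein-coding genes in chromosome order with CDKN2A in the middle, rows being the 5 lines and colour the log2(TPM + 1) value, capped at 8. REH is dark over 11 adjacent genes, whereas MKL-1 is dark over CDKN2A and CDKN2B with MTAP low at 0.780 TPM.

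The CIP/KIP inhibitors were expressed in every line. CDKN1B (ENSG00000111276), which encodes p27, was found in MKL-1 at 298 TPM, in MKL-2 at 213 TPM, in WaGa at 259.6 TPM, in MCC13 at 43.1 TPM and in REH at 67.6 TPM. Its level was 257 ± 42.3 TPM (SD, n = 3) in the virus-carrying lines, and the lowest of them was 4.96 times that of MCC13. CDKN1B was lower in MCC13 than in those 3 lines, by -2.54 ± 0.28 on the log2 scale (SE, limma, adjusted p = 0.0274). Against REH the 4 MCC lines did not pass (1.26 ± 1.18, limma, adjusted p = 0.649). Without MCC13 they did, and CDKN1B was higher in the MCC lines by 1.90 ± 0.28 (limma, adjusted p = 0.0398). All 3 lines lay above REH, but the share of all genes without overlap was not computed for this set of lines.

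CDKN1A (ENSG00000124762), which encodes p21, was found in MKL-1 at 76.4 TPM, in MKL-2 at 50.1 TPM, in WaGa at 82.8 TPM, in MCC13 at 45.0 TPM and in REH at 168 TPM. REH lay above all 4 MCC lines, at 2.03 times the highest of them, but the difference did not pass after adjustment (-1.43 ± 0.45, SE, limma, adjusted p = 0.196). MCC13 lay just below MKL-2, and its difference from the other 3 lines had a 95% interval from -1.77 to 0.59 (limma, adjusted p = 0.421). The ratio of CDKN1B to CDKN1A was 3.14 to 4.26 in the virus-carrying lines, 0.956 in MCC13 and 0.403 in REH.

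In each line nearly all D cyclin RNA came from 1 gene, CCND1 in MCC13 and CCND3 in the other 4. CCND1 (ENSG00000110092), the D cyclin most tied to mitogen signals in adherent cells, was found in MKL-1 at 0.0619 TPM, in MKL-2 at 0.300 TPM, in WaGa at 0.174 TPM, in MCC13 at 1484 TPM and in REH at 0.800 TPM. MCC13 stood alone at 4947 times the highest of the other MCC lines, a ratio that rests on a level near 0. In MCC13, CCND1 ranked above 99.6% of the genes at 1 TPM or more. The difference from the other 3 MCC lines was 10.30 ± 0.39 (SE, limma, adjusted p = 0.00855). CCND2 (ENSG00000118971) was listed at 0 in MKL-1 and was found in MKL-2 at 0.132 TPM, in WaGa at 0.00863 TPM, in MCC13 at 2.28 TPM and in REH at 20.5 TPM. It was higher in MCC13 than in the other 3 MCC lines by 1.65 ± 0.14 (SE, limma, adjusted p = 0.0176), at a level that made up 0.148% of the D cyclin RNA of that line. That call depends on the constant added before taking logs, since with 0.1 in place of 1 the adjusted p was 0.0586 (limma).

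CCND3 (ENSG00000112576), the D cyclin required in lymphocyte precursors, was present in all lines, in MKL-1 at 80.5 TPM, in MKL-2 at 102 TPM, in WaGa at 97.6 TPM, in MCC13 at 58.4 TPM and in REH at 1168 TPM. The 4 MCC lines stood at 84.6 ± 19.7 TPM (SD, n = 4), and REH was at 11.5 times the highest of them. CCND3 was lower in the MCC lines by -3.80 ± 0.39 on the log2 scale (SE, limma, adjusted p = 0.0150). CCND2 also lay below REH in all 4 MCC lines, with a difference of -3.95 ± 0.82 that did not pass (limma, adjusted p = 0.0803). Without MCC13 it passed (-4.36 ± 0.22, limma, adjusted p = 0.00885). The difference of MCC13 from the other MCC lines in CCND3 did not pass (-0.66 ± 0.24, SE, limma, adjusted p = 0.213).

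Summed over the 3 genes, D cyclin RNA was found in MKL-1 at 80.6 TPM, in MKL-2 at 102 TPM, in WaGa at 97.8 TPM, in MCC13 at 1544 TPM and in REH at 1189 TPM. MCC13 and REH thus held 15.1 and 11.6 times the highest of the other 3 lines, from different genes. CCND1 made up 96.1% of the sum in MCC13. CCND3 made up 99.6% to 99.9% in the virus-carrying lines and 98.2% in REH.

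**Figure D3:**
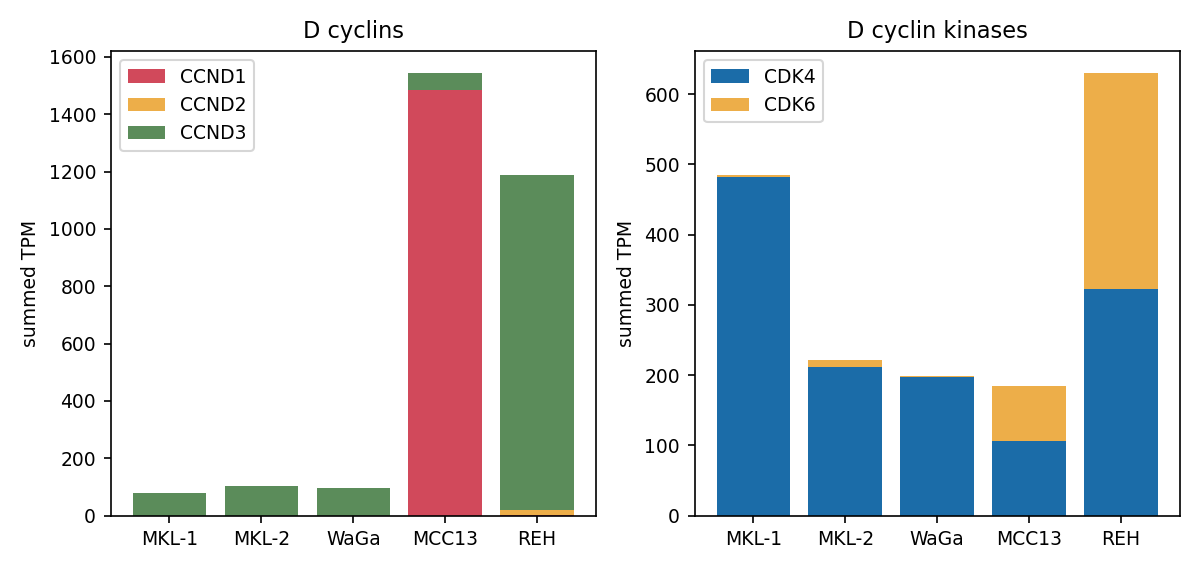
Summed TPM of the 3 D cyclins (left) and of CDK4 and CDK6 (right) in each line, with each gene as a segment of the bar and 1 library per bar. CCND1 fills the MCC13 bar and CCND3 the REH bar, and CDK6 is a visible segment in MCC13 and REH.

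Of the kinases, CDK4 was abundant in every line and CDK6 was not. CDK4 (ENSG00000135446) was found in MKL-1 at 483 TPM, in MKL-2 at 212 TPM, in WaGa at 198 TPM, in MCC13 at 106 TPM and in REH at 322 TPM, above at least 87.9% of the genes at 1 TPM or more in each line. MCC13 was the lowest line and MKL-1 the highest, and REH lay inside the MCC range. Neither comparison passed (limma, adjusted p = 0.767 against REH and 0.307 for MCC13). CDK6 (ENSG00000105810), the kinase prominent in blood cells, was found in MKL-1 at 1.53 TPM, in MKL-2 at 9.18 TPM, in WaGa at 0.246 TPM, in MCC13 at 77.5 TPM and in REH at 308 TPM. With 1 library each, MCC13 stood at 8.44 times the highest of the other MCC lines and REH at 3.98 times MCC13. The spread between the virus-carrying lines was itself 37.4 times, and the differences did not pass, at 4.63 ± 1.43 for MCC13 (SE, limma, adjusted p = 0.171) and -5.45 ± 2.41 against REH (SE, limma, adjusted p = 0.343). AC002454.1, which overlaps CDK6 on the opposite strand with shared exon bases, stood at 145 TPM in REH, 5.52 TPM in MCC13 and 0 elsewhere. No source here says whether counting used the strand, so reads of CDK6 and AC002454.1 may not be separable. CDK6 made up 48.9% of the summed CDK4 and CDK6 level in REH, 42.1% in MCC13, 4.16% in MKL-2, 0.316% in MKL-1 and 0.124% in WaGa.

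The balance of the parts, as ratios of summed TPM, also differed by line. D cyclin RNA per unit of CDK4 and CDK6 RNA was lowest for MKL-1 (0.166), then 0.462 for MKL-2, 0.493 for WaGa, 1.89 for REH and 8.40 for MCC13. The INK4 ratio used the same kinases and counts CDKN2A, CDKN2B and CDKN2C, without CDKN2D. It was 0.169 for REH, 0.844 for MKL-1, 1.66 for MCC13, 1.83 for WaGa and 2.51 for MKL-2. REH and MCC13 thus had the most D cyclin RNA per kinase RNA, and REH the least RNA of these INK4 genes. CDKN2D, left out of the sum, was highest in REH, at 142 TPM against 15.2 to 107 TPM in the MCC lines. The kinase sum includes CDK6, whose reads may not be separable from those of AC002454.1. The CIP/KIP sum of CDKN1A and CDKN1B ranged from 264 to 374 TPM in the virus-carrying lines, above REH (235 TPM) and MCC13 (88.1 TPM). These ratios have 1 value per line and no test, and they describe RNA, not protein.

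Across the comparisons, 1 of the 10 genes (CCND3) differed between the 4 MCC lines and REH, lower in the MCC lines, where 5.24% of 22250 tested genes were called, 1.09% higher and 4.15% lower. Between MCC13 and the other 3 MCC lines, 3 of 10 were called, CCND1 and CCND2 higher and CDKN1B lower, against 8.95% of 20698 tested genes, 6.47% higher and 2.47% lower. Without MCC13, the MCC lines differed from REH in 3 of the 9 genes tested, CDKN1B higher and CCND2 and CCND3 lower, where 13.3% of 21247 genes were called, 4.89% higher and 8.42% lower. CCND1 was under 1 TPM in all lines of that fit and was not tested. The median log2 difference of the 10 genes was 0.14 against REH and 0.24 in MCC13, beside medians over all genes of 0.18 and -0.30. REH lay outside the MCC range for 4 of 10 genes (CDKN1A, CCND2, CCND3 and CDK6), against 52.7% of all tested genes. MCC13 lay outside the range of the other 3 for 9 of 10, CDKN2B being the exception, against 71.1%.

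**Figure D4:**
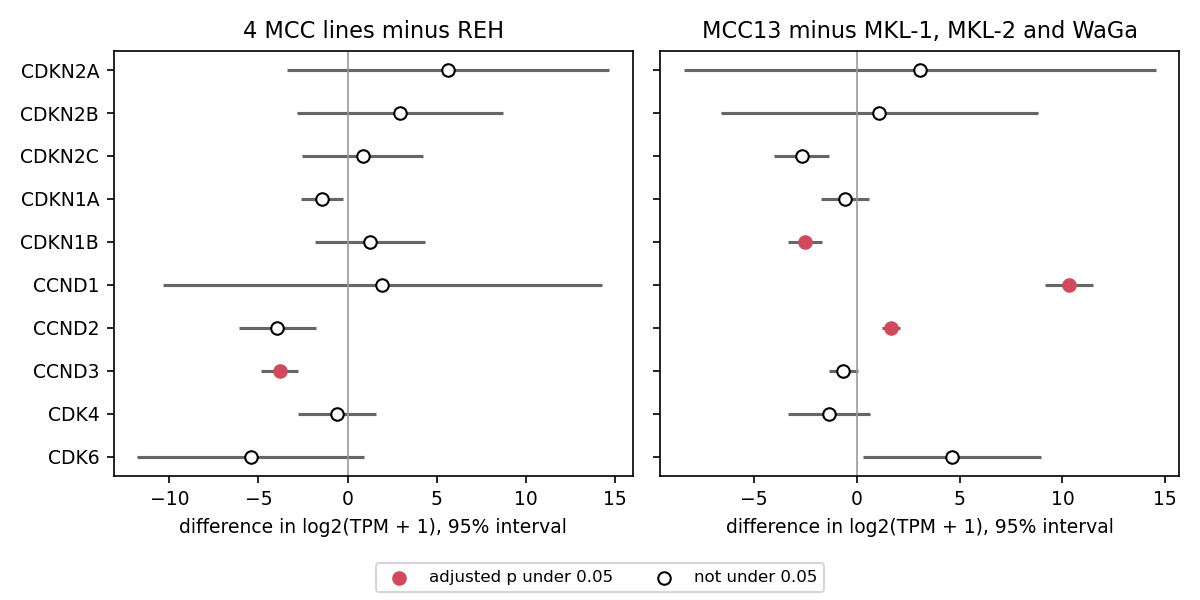
Difference in log2(TPM + 1) with its 95% interval from limma, for the 4 MCC lines minus REH (left) and for MCC13 minus the other 3 MCC lines (right), filled where the adjusted p was under 0.05. Filled points are CCND3 on the left and CDKN1B, CCND1 and CCND2 on the right, and the intervals of CDKN2A and CDKN2B are wide in both.

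All of these calls rested on few lines. For the calls made without MCC13, no further line was left out, so they were not checked in this way. With any 1 of the virus-carrying lines removed, the limma adjusted p was 0.0680 to 0.0970 for CCND3 against REH, and for MCC13 it was 0.0893 to 0.133 for CCND1, 0.0935 to 0.142 for CDKN1B and 0.0918 to 0.141 for CCND2. No gene of the whole table passed in any of those fits, with 3194 to 3432 genes (against REH) and 4414 to 4978 genes (MCC13) at an unadjusted p under 0.05. The differences themselves moved little, to between -3.90 and -3.79 for CCND3 and between 10.23 and 10.38 for CCND1. An exact permutation test cannot give p below 0.2 for 4 lines against 1, or below 0.25 for 1 against 3.

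Other genes of the pathway were read from lists of the same fit. These lists were chosen with earlier results of these data known. Over all tested genes 8.95% were called in MCC13 (6.47% higher, 2.47% lower) and 5.24% against REH, and with 0 to 2 calls in a list, no list is set apart from that share. CDKN1C, the KIP inhibitor p57, passed, at 3.09 TPM in MCC13 against 36.6 to 59.1 TPM in the other 3 MCC lines (-3.63 ± 0.41, SE, limma, adjusted p = 0.0299). CDKN2D, the INK4 inhibitor p19, did not, at 15.2 TPM against 54.8 to 107 TPM (-2.17 ± 0.49, SE, limma, adjusted p = 0.108). Of 13 pocket proteins and E2F factors, 2 passed in MCC13, both lower, with a median difference of -0.65. These were RB1, the target of the D cyclin kinases, at 2.56 TPM against 57.3 to 82.9 TPM, and E2F2, at 11.9 TPM against 101 to 167 TPM. MCC13 was thus the line with the lowest RB1 RNA and the highest CDKN2A and CCND1 RNA of the 5. Against REH, 1 of the 13 was lower in the MCC lines, TFDP2, a partner of E2F factors, at 16.4 to 38.9 TPM against 238 TPM (-3.18 ± 0.53, SE, limma, adjusted p = 0.0475).

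Of 10 later cyclins, CDKs and CDC25 phosphatases, 1 was lower in MCC13, CCNE2, a partner of CDK2, at 36.0 TPM against 131 to 181 TPM (limma, adjusted p = 0.0438). CCNE1, its paralog, ranged from 71.6 to 78.7 TPM in the virus-carrying lines, with MCC13 at 64.6 TPM. None of the 10 passed between the MCC lines and REH. Of 16 proliferation markers 1 was lower in MCC13, the helicase subunit MCM6 (82.7 TPM against 267 to 278 TPM), and none passed against REH. MKI67, the common marker of dividing cells, stood at 44.9 to 83.8 TPM in all 5 lines.

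Among 5 genes that activate or fold CDK4, 1 was higher in MCC13, CDK7, the kinase that phosphorylates other CDKs, at 75.6 TPM against 14.4 to 16.1 TPM (2.23 ± 0.26, SE, limma, adjusted p = 0.0307). Of 11 genes of p27 and D cyclin turnover, 1 was lower, USP2, a protease that removes ubiquitin from cyclin D1, at 2.16 TPM against 30.6 to 56.6 TPM (-3.83 ± 0.48, SE, limma, adjusted p = 0.0363). SKP2, which marks p27 for destruction, ranged from 29.9 to 80.7 TPM in the virus-carrying lines, with MCC13 at 70.2 TPM. None of 9 Polycomb genes that repress the INK4 locus passed in either comparison, and EZH2 stood at 62.7 to 102 TPM in the MCC lines and 196 TPM in REH. Of 6 tested AP-1 factors, which act on CCND1, 1 was higher in MCC13, FOSL1, at 415 TPM against at most 0.316 TPM in the other 3 MCC lines and 1.39 TPM in REH (8.40 ± 0.37, SE, limma, adjusted p = 0.00855).

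**Figure D5:**
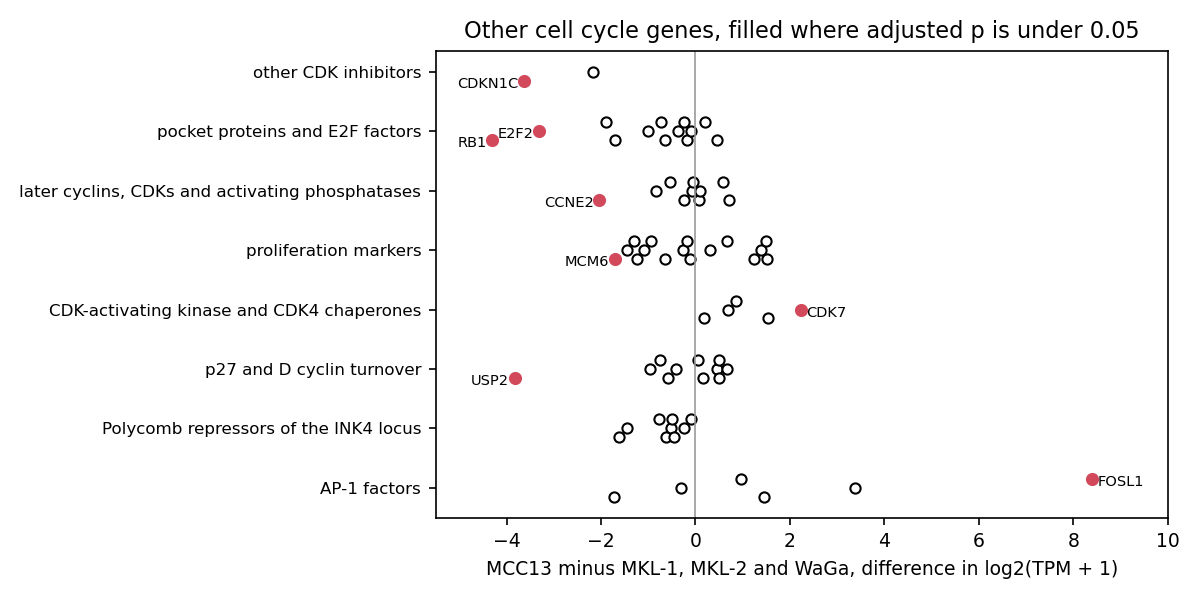
Difference in log2(TPM + 1) of MCC13 minus the virus-carrying lines for the other genes of the pathway, 1 point per gene and 1 row per list. Filled points (adjusted p under 0.05) are named, with FOSL1 and CDK7 to the right of 0 and RB1, USP2, CDKN1C, E2F2, CCNE2 and MCM6 to the left.

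For the 9 genes with a range of at least 2 on the log2 scale, the genes with the nearest profile over the 5 lines were sought among 12954 candidates, by root mean square distance after centring. Only 5 points enter each profile, so the likeness is a description. Nearest to CDKN2A was TES, a focal adhesion protein, in MKL-1 at 0.0150 TPM, in MKL-2 at 150 TPM, in WaGa at 66.8 TPM, in MCC13 at 128 TPM and 0 in REH (distance 0.470), followed by MTAP (1.31) and TMBIM1 (1.55). CDKN2B was nearest to ROR2, FAM50B and CPVL (0.525 to 0.714). CDKN1B was nearest to ATP8B2, NBEA and the pseudogene GEMIN8P4 (0.0691 to 0.140), and CDKN2C to NPIPA5, ANKH and DHRS13 (0.132 to 0.193). Near CCND1 were TM4SF1 (0.246) and COL4A1 (0.278), at 1136 and 793 TPM in MCC13 and at most 0.387 TPM elsewhere. For CCND2 they were CA2, NOG and IKZF2 (0.0513 to 0.132), and for CCND3 TBC1D10C, the pseudogene PTMAP4 and TNFAIP8L2 (0.184 to 0.207), all 6 highest in REH. CDK4 was nearest to ZNF74, PLD6 and GRIP1 (0.0131 to 0.130), and CDK6 to HSD17B11, BCL6 and GADD45B (0.457 to 0.562). The levels of NPIPA5, one of a family of very similar genes, and of both pseudogenes are uncertain. So is that of MTAP in MKL-1, where an overlapping gene model was high.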

How the data were processed

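The TPM values were computed by the authors and deposited as 1 table for the 5 lines, with column totals of 999665 to 999972. Among tools, the submitters' processing notes list StringTie 1.3.5, STAR 2.4.5b, SAMtools 0.1.19 and bcl2fastq 2.20, and as builds GRCh37 and hg19. Their roles, the annotation and strand use in counting were not stated there. Per the labels' protocols mRNA was selected with oligo-dT and the kit was directional. The 1 column of values that matched no sample was not used, nor was a table of PAX5 exons. TPM keeps no depth and moves all genes when a few abundant ones change.

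The test, on log2(TPM + 1), took every gene that reached 1 TPM in any compared line and used limma 3.58.1 under R 4.3.3 (variance trend, 2-sided, Benjamini-Hochberg over all tested genes, adjusted p under 0.05), with 3 residual degrees of freedom for the MCC lines against REH and 2 for MCC13 against the other MCC lines. A lone line was assumed to vary like the others, and on this scale low genes change less than in TPM. Tables were handled in Python 3.11.15. Where a symbol had several rows, the row with the highest mean was used. GENCODE 29 held 52338 of the identifiers and was used for order and overlaps only. The genes and lists were chosen with earlier results of these data known. The rule for names took all 10 genes, the members of each list that passed or else those with the largest difference, and the 3 genes with the nearest profile; some genes that the rule takes are not reported here. CCNE1, MKI67, SKP2, EZH2, the genes around CDKN2A and the overlapping gene models were named after their values were seen. Alternatives were other pseudocounts, filters, scalings, no variance trend, and leaving out each MCC line.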

Additional observations from a re-analysis of the deposited data

Results flagged for a closer look

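3 genes stood apart in 1 of the 4 MCC lines by Dixon's test on the log2(TPM + 1) scale, which compares the gap to the nearest line with the whole range (past the 95% critical value). CDKN2A had a ratio of 0.902, with MKL-1 as the low line (listed at 0, against 143 to 246 TPM). CCND1 had a ratio of 0.972, with MCC13 as the high line at 1484 TPM. CCND2 had a ratio of 0.896, again with MCC13 as the high line, at 2.28 TPM. CDKN1B came just short at 0.826, with MCC13 low. Chance would place about 5% of such groups past this value. Only the genes described here were put through Dixon's test, and the share of all genes past this value was not computed. MCC13 lay outside the range of the other 3 MCC lines for 71.1% of all tested genes. An excess over 5% therefore cannot be read as particular to the genes described here.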

How the results depend on the processing

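Without 1 of the 4 MCC lines, the number of the 10 genes that differed from REH ranged from 0 to 3 (0 to 1 higher, 0 to 2 lower, beside 1 with all lines), and the number over all genes from 0 to 2828 (0 to 1038 higher, 0 to 1790 lower, beside 1166, 243 and 923), 0 each time MKL-1, MKL-2 or WaGa was the line left out. For MCC13 against the other 3, it was 0 of the 10 and 0 of all genes each time, beside 3 of the 10 (2 higher, 1 lower) and 1852 (1340 higher, 512 lower). In that comparison CDKN2B turned from 1.08 to -0.26 without MKL-1, and neither value passed. CDKN2A moved from 3.06 to 0.62 without MKL-1 there, and from 5.65 to 7.54 against REH, with no call in any of these fits. Leaving out REH or MCC13 where it stands alone gives no value.

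With a pseudocount of 0.1, 403 genes were higher and 482 lower than in REH, and 1 of the 10 was higher in MCC13. With a pseudocount of 5, 2 of the 10 were lower than in REH, CCND2 being added (-2.20, limma, adjusted p = 0.0220), and 151 genes were higher. With no filter on low values, 3694 genes differed from REH (3346 lower) and 3312 in MCC13 (2807 higher). Among genes averaging 5 TPM or more, 288 differed from REH (160 higher, 128 lower) and 1167 in MCC13 (543 higher), where 1 of the 10 was higher and 2 lower, since CCND2 was not tested and CDKN2C passed. Without the variance trend 614 genes were lower than in REH, and CCND2 was lost in MCC13 (limma, adjusted p = 0.0529), leaving 1 of the 10 higher. Apart from the fewer genes or lines tested, the cause of these changes was not tested. Quantile normalization and TPM rescaled without mitochondrially encoded genes kept the direction and call of all 10 genes in both comparisons. Quantile normalization moved the median over all genes from 0.18 to 0.03 against REH and from -0.30 to -0.13 in MCC13. Depth is unknown, so the counting error of levels near 0, such as those of CCND1, CCND2 and CDK6 in MKL-1 and WaGa, is not known. The direction of differences among these levels was not read. The 37.4 times spread of CDK6 between the virus-carrying lines rests on such a level in WaGa. No paired analysis was possible because the lines are different cell lines, and their numbers, given in accession order, pair none of them.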

Other observations

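Genes that neighbour CCND1, CDK6 and CDK4 were also read in MCC13. Of 5 tested neighbours of CCND1 none passed (limma), and 3 were higher in value. CTTN, an actin-binding protein, stood at 211 TPM in MCC13 against 85.3 to 111 TPM in the other 3 MCC lines, FADD, a death receptor adaptor, at 70.8 TPM against 32.9 to 42.3 TPM, and ORAOV1, which overlaps CCND1 on the opposite strand, at 25.2 TPM against 10.5 to 12.1 TPM. The other 2, PPFIA1 (64.4 TPM against 64.9 to 90.4 TPM) and TPCN2 (14.7 TPM against 11.1 to 23.4 TPM), were lower in mean by -0.28 and -0.17 on the log2 scale. FGF3, FGF4 and FGF19 were listed at 0 in all 4 MCC lines. Of 6 neighbours of CDK6, SAMD9L was higher in MCC13 at 11.5 TPM against at most 0.0167 TPM (3.63 ± 0.17, SE, limma, adjusted p = 0.00855) and HEPACAM2 was lower at 0.104 TPM against 285 to 516 TPM (-8.46 ± 0.42, SE, limma, adjusted p = 0.00855). FAM133B and GATAD1, from the same list, stood at 11.7 to 23.1 TPM in all 4 MCC lines and did not pass. Of 8 matched neighbours of CDK4 none passed in either comparison.

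JUN, an AP-1 factor, stood at 51.4 to 200 TPM in the 4 MCC lines and 4.51 TPM in REH (limma, adjusted p = 0.0731).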
